A study of Danio rerio with 6 samples.

Results

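Ionocytes are the ion-transporting cells of fish skin and gill, and 9 genes that mark them or drive their formation were followed in whole zebrafish larvae. The 9 genes were taken by symbol from a table of 24470 genes, each symbol stood on a single gene ID, and all 9 passed the filter on low values. They are trpv6, foxi3a, foxi3b, gcm2, slc12a10.2, ca2, ca15a, rhcgb and slc4a4b. All larvae carried the transgene Tg(Brn3C:mGFP), a green fluorescent label of hair cells, and were 5 days old (days post fertilization) at sampling. In 3 libraries the larvae had been exposed from day 3, for 48 h, to 2.5 µM 4-octyl itaconate, an itaconate derivative that enters cells, and 3 libraries came from controls. The sources used here do not state what the controls received, or how many larvae or clutches made up a library. The p-values therefore measure the spread between these libraries, and that spread may be technical.

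Freshwater fish lose salt to the water and take it back through ionocytes, which sit among the keratinocytes of the larval skin before the gills take over. In zebrafish they come as several types. H+-ATPase-rich cells secrete acid and take up sodium in exchange for protons and ammonium. Na+/K+-ATPase-rich cells take up calcium, NCC cells take up sodium and chloride together through a cotransporter, and K+-secreting cells release potassium. Their precursors share the epidermal stem cell pool with keratinocytes, and the forkhead factors Foxi3a and Foxi3b direct them to the ionocyte fate while Notch signals limit their number. In the neuromasts of the lateral line, the organs the series set out to study, ionocytes of skin origin also settle beside the hair cells.

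Transcripts of 8 of the 9 genes were higher in treated than in control larvae. Those of slc12a10.2, the NCC cotransporter gene, were lower on average, with treated replicate 1 within the control range. That fall depended on the processing and on single libraries, as given below. Values are normalized counts, that is read counts divided by 1 factor per library, and a log2 fold change is the treated minus the control mean of log2(normalized count + 1). A gene was called when its limma p, adjusted by the Benjamini-Hochberg method over all 20352 tested genes, was under 0.05. By that rule 8 of the 9 genes rose and 1 fell, in a comparison in which 69.3% of all tested genes were called, 35.0% as higher and 34.3% as lower. The median log2 fold change was 2.35 over the 9 genes and 0.01 over all tested genes. In 8 of the 9 genes no treated library overlapped a control library, which held for 74.1% of tested genes (37.4% with treated higher and 36.8% with treated lower). The RNA came from whole larvae, so a larger number of ionocytes, more RNA per ionocyte and RNA from other cells cannot be told apart.

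**Figure D1:**
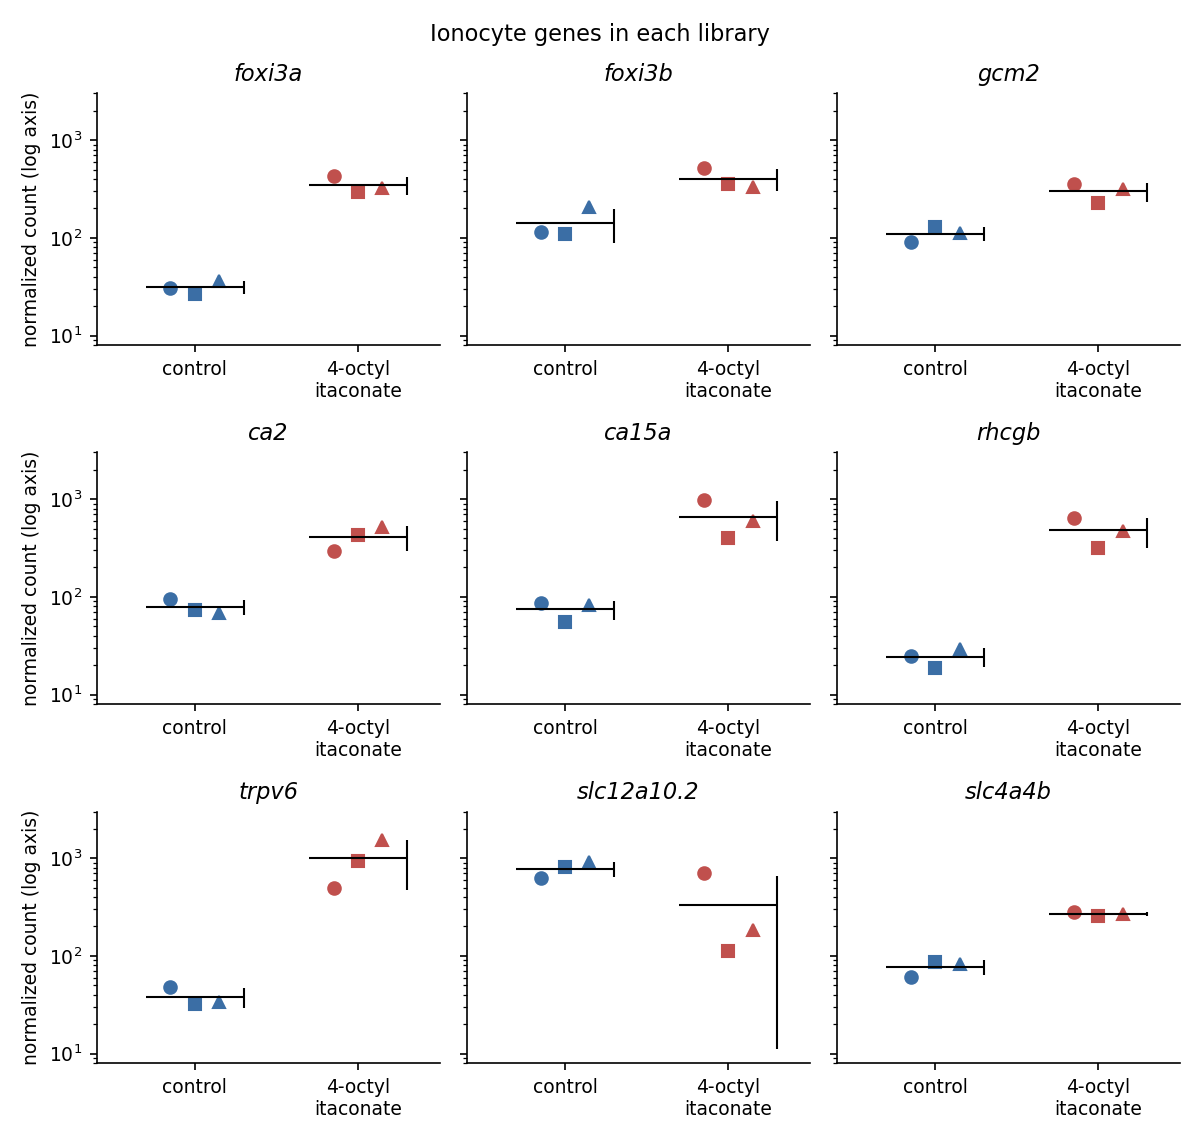
Normalized counts (log axis) of the 9 ionocyte genes in 3 control and 3 treated libraries. Each symbol is a library (circle, square and triangle are replicates 1, 2 and 3), the horizontal line is the group mean and the vertical line spans 1 SD to each side. In slc12a10.2 treated replicate 1, at 701, sits among the controls, while in the other 8 genes every treated library is above every control.

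The fate regulators differed in how far they moved. The gene foxi3a (ENSDARG00000055926), which in zebrafish is needed for ionocyte precursors to form, stood at 432, 294 and 323 normalized counts in treated replicates 1, 2 and 3 and at 31.1, 26.7 and 36.6 in control replicates 1, 2 and 3. All treated libraries were far above all controls. Its mean was 11.1-fold higher in treated larvae (log2 fold change 3.42, SE 0.24, limma adjusted p = 5.37e-06). The related gene foxi3b (ENSDARG00000009550), which acts with foxi3a in the same precursors, stood at 516, 360 and 331 in the treated and at 114, 109 and 206 in the control replicates. Control replicate 3 was the highest control, and still below all treated libraries. The rise of foxi3b was 2.81-fold (log2 fold change 1.52, SE 0.29, limma adjusted p = 0.00135). The gene gcm2 (ENSDARG00000045413), a transcription factor gene needed for H+-ATPase-rich cells and also active in the pharyngeal arches, stood at 358, 229 and 315 in the treated and at 91.2, 129 and 113 in the control replicates. It rose 2.71-fold (log2 fold change 1.42, SE 0.23, limma adjusted p = 0.000613), the smallest rise of the 8.

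The balance between the paired regulators, taken within each library, lay further toward foxi3a in treated larvae. It restates their log2 fold changes without the library scaling, and its p adds no support to them. The ratio of foxi3a to foxi3b counts was 0.837, 0.816 and 0.974 in the treated and 0.272, 0.245 and 0.178 in the control replicates. This ratio does not depend on the scaling of the library, and the groups did not overlap. On the log2 scale it was 1.94 higher in treated larvae (exact two-sided permutation p = 0.1, the smallest that 3 against 3 libraries allow, and 0.133 adjusted over the 4 ratios computed). Because the genes differ in length, the ratio shows the shift between groups and not which of them had more transcripts.

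Of the members known from H+-ATPase-rich cells, rhcgb, ca15a and ca2 had larger log2 fold changes than the regulator gene gcm2. The gene rhcgb (ENSDARG00000100265), for an Rh glycoprotein that passes ammonia through the apical membrane, stood at 643, 319 and 476 in the treated and at 25.1, 18.9 and 29.6 in the control replicates. The control values rest on 17 to 25 reads a library, the treated ones on 284 to 574. It rose 19.6-fold (log2 fold change 4.20, SE 0.30, limma adjusted p = 5.81e-06). It ranked 395 of 20352 from the highest log2 fold change. Set against gcm2 in the same library, its ratio was 1.80, 1.39 and 1.51 in the treated and 0.275, 0.147 and 0.263 in the control replicates. The groups did not overlap, and the log2 difference was 2.83 (exact two-sided permutation p = 0.1, adjusted p = 0.133 over the 4 ratios). This ratio, too, restates the changes of rhcgb and gcm2 without the library scaling.

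Both carbonic anhydrase genes of the group rose. The gene ca15a (ENSDARG00000015654), for a membrane-anchored carbonic anhydrase of H+-ATPase-rich cells, stood at 970, 400 and 604 in the treated and at 87.2, 55.6 and 81.8 in the control replicates. It rose 8.79-fold (log2 fold change 3.05, SE 0.33, limma adjusted p = 4.71e-05). Treated replicate 1 was the highest library for ca15a. The gene ca2 (ENSDARG00000014488), for the cytosolic enzyme that supplies protons and bicarbonate, stood at 291, 427 and 524 in the treated and at 95.2, 73.3 and 69.1 in the control replicates, and rose 5.23-fold (log2 fold change 2.35, SE 0.26, limma adjusted p = 5.38e-05). Here treated replicate 1 was the lowest of the treated libraries. The ratio of ca2 to ca15a was 0.301 in treated replicate 1, and 1.07 and 0.867 in the other treated libraries, against 1.09, 1.32 and 0.845 in controls. These groups overlapped, with a log2 difference of -0.71 (exact two-sided permutation p = 0.4). Without treated replicate 1 the difference was -0.15, and without treated replicate 2 it was -1.06.

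The calcium channel gene trpv6 had the largest rise of the 9 genes. It encodes the apical channel through which Na+/K+-ATPase-rich cells take up calcium, and stood at 500, 942 and 1541 in treated replicates 1, 2 and 3 (ENSDARG00000014496). The controls held 48.1, 32.2 and 33.8. The mean rose 26.1-fold, from 38.1 ± 8.75 to 994 ± 522 (SD, n = 3 per group; log2 fold change 4.55, SE 0.38, limma adjusted p = 1.17e-05). A lower log2 fold change was found in 98.6% of tested genes. The treated libraries differed from each other by 3.08-fold, replicate 1 again being the lowest. Without it the log2 fold change was 4.97.

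The exception was a single gene of NCC cells. The gene slc12a10.2 (ENSDARG00000071173), for the apical sodium-chloride cotransporter of these cells, stood at 633, 806 and 904 in the control replicates. Treated replicates 2 and 3 held 114 and 182, and treated replicate 1 held 701, within the control range. The log2 fold change was -1.66 (SE 0.56, limma adjusted p = 0.0253; 2.35-fold lower by the group means). The call was lost without treated replicate 2 or 3 (log2 fold changes -1.11 and -1.45, adjusted p = 0.0796 and 0.0827) and without control replicate 2 or 3 (-1.63 and -1.54, adjusted p = 0.0748 and 0.0757). Leaving out treated replicate 1 gave -2.42 (limma adjusted p = 6.18e-06). On reads recovered from the same values it passed neither with edgeR (adjusted p = 0.0976) nor with DESeq2 (0.152). The other member of this cell type, slc4a4b (ENSDARG00000044808), for a basolateral sodium-bicarbonate cotransporter, went the other way. It stood at 282, 253 and 268 in the treated and at 61.2, 86.7 and 83.2 in the control replicates, and rose 3.48-fold (log2 fold change 1.80, SE 0.21, limma adjusted p = 8.15e-05). Its treated libraries lay within 1.12-fold of each other, the tightest of the 9 genes.

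The genes trpv6 and slc12a10.2, markers of different ionocyte types, were also set against each other. They had the highest and the lowest log2 fold change of the members. Their ratio therefore restates their changes without the library scaling, and its p adds no support to them. The ratio of trpv6 to slc12a10.2 counts was 0.714, 8.29 and 8.45 in treated replicates 1, 2 and 3, and 0.0761, 0.0400 and 0.0374 in the control replicates. No treated library overlapped a control, although treated replicate 1 lay far from the other treated libraries. The log2 difference was 6.25 (exact two-sided permutation p = 0.1, adjusted p = 0.133 over the 4 ratios), and 7.43 without treated replicate 1.

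Treated replicate 1 also stood apart across the whole table, where the second principal component (6.83% of variance) held it away from the other 5 libraries. Among the 9 genes it was the highest treated library for foxi3a, foxi3b, gcm2, ca15a, rhcgb, slc4a4b and slc12a10.2, and the lowest for ca2 and trpv6. The spread within the treated group was widest in slc12a10.2, at 6.17-fold between the highest and lowest library, against 1.43-fold within the controls. The 8 rises passed the limma threshold without this library, and without each of the other 5.

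**Figure D2:**
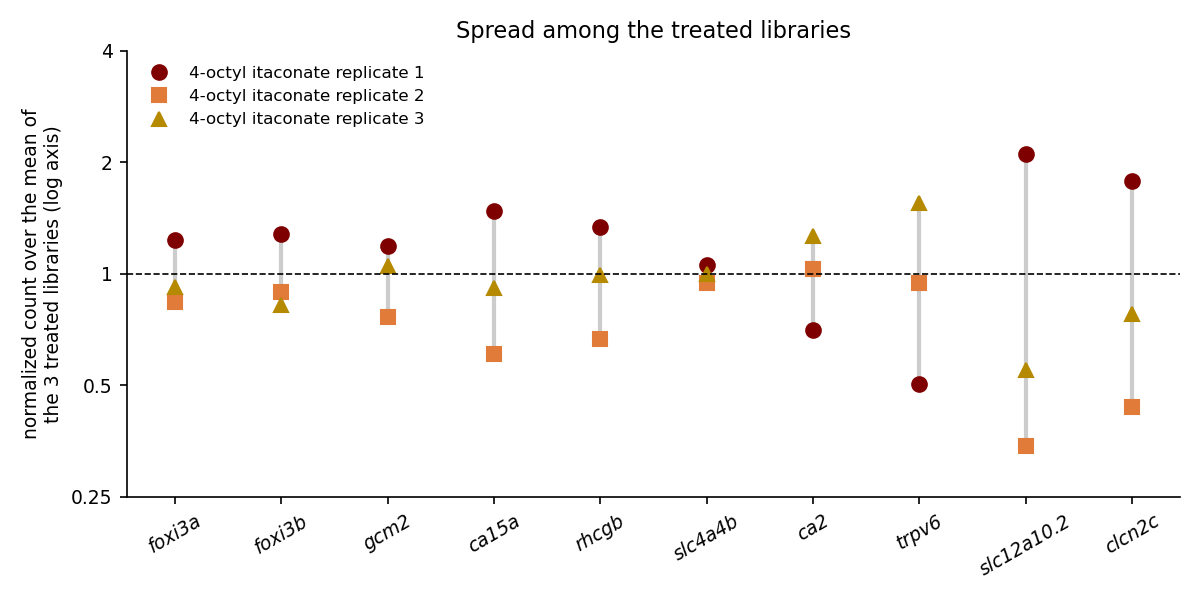
Normalized count of each gene in the 3 treated libraries, divided by the mean of those 3 (log axis, dashed line at 1); grey bars join the lowest and highest library. Replicate 1 is at 2.11 times the mean for slc12a10.2 and at 0.503 times for trpv6; clcn2c, a chloride channel gene also known from NCC cells, is shown beside them.

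Other genes known from the same cell types were drawn from lists of each type. Their counts stand beside the 35.0% of all tested genes that rose and the 34.3% that fell. Of 11 tested genes of H+-ATPase-rich cells, 6 rose, 3 fell and 2 did not pass. The basolateral anion exchanger gene slc4a1b rose 9.76-fold, the sodium-proton exchanger gene slc9a3.2 5.22-fold, from 12.7 to 19.0 in controls to 77.3 to 82.1 in treated libraries, and the anion exchanger gene slc26a3.2 7.62-fold. The sodium pump gene atp1a1a.5, the water channel gene aqp1a.1 and the ammonia channel gene rhbg had log2 fold changes of 1.98, 1.76 and 0.92. Over these 6 genes the limma adjusted p ran from 1.12e-05 to 0.00142. The part of other tissues in these 6 rises was not tested. The falls were all in subunits of the proton pump itself, which most cells also use in their endosomes and lysosomes. The genes atp6v1ab, atp6v1ba and atp6v1aa had log2 fold changes of -1.48, -0.80 and -0.71 (limma adjusted p = 2.92e-05, 0.00145 and 0.0109). The call of atp6v1aa was lost without control replicate 1 (-0.62, adjusted p = 0.0507). It was also lost with upper-quartile scaling (-0.39, adjusted p = 0.0858). The genes atp6v0ca, at -0.28, and atp1b1b, at 0.51, did not pass. With quantile normalization both did, at -0.45 (adjusted p = 0.0237) and 0.86 (0.0320), and with upper-quartile scaling atp1b1b passed at 0.84 (0.0366) while atp6v0ca turned to 0.041. The proton pump is also abundant in synaptic vesicles, and neuron markers fell in the same larvae, in 11 of 12 cases; their part in the proton pump values was not tested.

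Genes of the calcium-transporting cells went both ways. Of 8 tested, 5 rose, 2 fell and 1 did not pass. The protease gene pappaa, whose product frees insulin-like growth factor in these cells, rose 16.8-fold, from 1.11 to 3.01 normalized counts in controls to 24.7 to 40.4 in treated larvae. Each control value of pappaa was at or under 3 reads, so the size of its fold is uncertain. Over the alternatives its log2 fold change ran from 2.38 to 4.04. The sodium-calcium exchanger gene slc8a1b, for basolateral calcium exit, rose 2.32-fold, and the sodium pump genes atp1a1a.1 and atp1b1a rose 2.22-fold and 1.70-fold. The annexin partner gene s100a10b had a log2 fold change of 2.31. Over these 5 genes the limma adjusted p ran from 8.41e-05 to 0.0128. The plasma membrane calcium pump genes atp2b1a and atp2b2, both also strongly used in neurons or hair cells, fell by 1.81 and 2.49 on the log2 scale (limma adjusted p = 7.50e-06 and 2.56e-05). The binding protein gene igfbp5a, which marks the calcium-transporting cells, stood at 196, 184 and 212 in the treated and 170, 140 and 233 in the control replicates. Its groups overlapped, and its log2 fold change of 0.15 did not pass (95% interval -0.35 to 0.66, limma adjusted p = 0.555), and its sign turned without control replicate 2.

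Of 5 tested genes of NCC cells besides the members, 2 rose and 3 did not pass. The chloride channel gene clcn2c stood at 377, 92.2 and 165 in treated replicates 1, 2 and 3 and at 215, 218 and 345 in the control replicates. Like slc12a10.2 it was high in treated replicate 1 and below the controls in the other treated libraries. Its log2 fold change of -0.49 did not pass (limma adjusted p = 0.353). Leaving out treated replicate 1 gave -1.03 (limma adjusted p = 0.00942), leaving out treated replicate 2 gave -0.019 (0.969) and leaving out control replicate 3 gave -0.27 (0.667). The gene bsnd, for a chloride channel subunit, did not pass at 0.74. The sodium pump gene atp1a1a.2 rose 2.21-fold. The genes slc12a10.1 and slc12a10.3 carry the family name of slc12a10.2, and slc12a10.3 is its neighbour in the RefSeq annotation of build GRCz12tu. How the authors' counting treated reads that fit more than 1 of these copies is not stated, so their values are uncertain. The gene slc12a10.1 had no read in any control and stood at 15.7 to 30.3 in treated larvae, at least 19.4-fold higher against a floor of 3 reads over the control group, while slc12a10.3 stood at 42.0 to 68.4 in the treated and 46.7 to 56.4 in the control libraries.

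Potassium channel genes of K+-secreting cells rose together. All 6 genes of the kcnj1a cluster passed, at log2 fold changes of 1.64 to 3.05 (limma adjusted p of 0.00076 to 0.00751), with levels of 5.01 to 41.1 normalized counts in controls and 30.4 to 166 in treated larvae. The largest change was that of kcnj1a.4, 8.75-fold. These genes are near-identical copies, so their separate values are uncertain for the same reason. Over the lists of the 4 cell types, 19 of 30 genes rose, 5 fell and 6 did not pass, with a median log2 fold change of 1.13. These counts take the 6 kcnj1a copies, all of which rose, as separate genes.

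**Figure D3:**
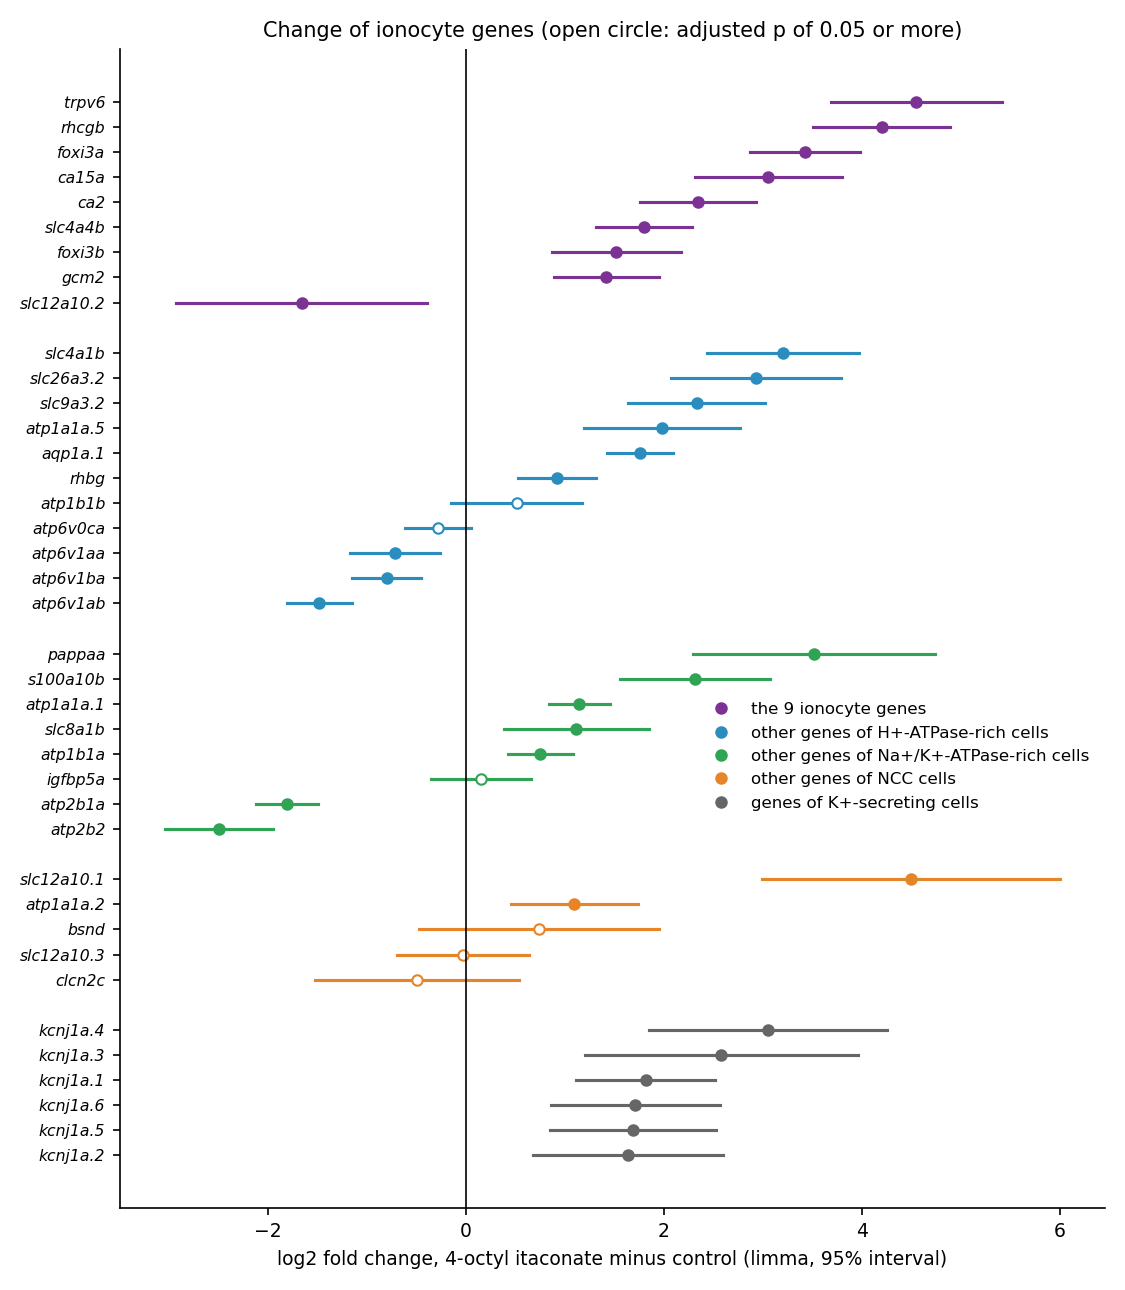
Log2 fold changes (treated minus control, limma) with 95% intervals for the 9 ionocyte genes and for other genes of each ionocyte type, grouped by colour. Filled circles had an adjusted p under 0.05; the 9 genes span -1.66 to 4.55, and the 6 kcnj1a genes all lie above 0.

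Markers of the epidermis, where skin ionocytes sit, were higher in the same larvae, in which 35.0% of all tested genes rose and 34.3% fell. Of 25 epidermal keratinocyte markers, 22 rose, none fell and 3 did not pass, with a median log2 fold change of 2.05. Among them the intermediate filament gene cyt1, the S100 family gene icn2 and the tight junction gene cldni rose 6.35-fold, 11.6-fold and 6.95-fold. Their summed level was 1.22% to 2.30% of reads in treated and 0.446% to 0.561% in control libraries, and no marker was at 0 in a group. Each ionocyte gene was therefore also set against the sum of the 25 markers in its own library, a value that is free of the library scaling. Keratins alone took 1.03% to 1.97% of reads in treated and 0.403% to 0.510% in control libraries, so they made up most of this sum. A reference of keratins alone, used further below, is therefore not a separate check.

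The same sum served all 9 genes of a library. The differences therefore restate their log2 fold changes, each lowered by nearly the same amount. Relative to this sum the genes formed 3 patterns, by whether the groups overlapped and in which direction. The genes rhcgb, trpv6, foxi3a and ca15a remained higher in treated larvae. For every 100000 normalized counts of epidermal markers there were 126, 129 and 117 of rhcgb in the treated and 26.6, 19.7 and 25.4 in the control replicates, a log2 difference of 2.39. For trpv6 there were 98.1, 380 and 379 in the treated replicates and 29.0 to 51.02 in the controls, a difference of 2.72, with treated replicate 1 nearest to the controls. For foxi3a there were 79.3 to 119 in treated and 27.8 to 33.0 in control libraries, and for ca15a 149 to 190 and 57.9 to 92.5, and in all 4 genes the groups did not overlap (exact two-sided permutation p = 0.1 each).

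In the second pattern the groups overlapped. The differences of ca2, slc4a4b and foxi3b relative to the epidermal markers were 0.49, -0.05 and -0.34 (exact two-sided permutation p = 0.5, 0.9 and 0.4). With 1 library left out they ranged from 0.16 to 0.95 for ca2, from -0.31 to 0.14 for slc4a4b and from -0.57 to -0.14 for foxi3b, the lowest without treated replicate 2 in each. The highest came without treated replicate 1 for ca2 and slc4a4b, and without control replicate 3 for foxi3b. With 3 libraries a group these values do not show that the genes and the epidermis changed alike. The third pattern was a lower ratio in treated larvae. For gcm2 the difference was -0.44, from 96.6 to 134 in controls to 70.1 to 92.6 per 100000 in treated libraries. The gcm2 count itself rose 2.71-fold, less than the 3.79-fold rise of the mean epidermal sum, so its lower ratio reflects the denominator. A gene at the median log2 fold change of all tested genes, 0.01, would also be lower relative to this sum. The ratio was computed for the ionocyte genes only, and its spread over all tested genes was not tested. For slc12a10.2 the difference was -3.53, from 671, 840 and 774 per 100000 in the control to 137, 45.9 and 44.8 in the treated replicates. On this measure treated replicate 1 of slc12a10.2 was below all controls, and the groups of both genes did not overlap (exact two-sided permutation p = 0.1 each). The slc12a10.2 count of that library, 701, was itself within the control range. Its epidermal sum was the highest of all libraries, 509761 normalized counts against 94321 to 116694 in controls, so its low ratio reflects the denominator.

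**Figure D4:**
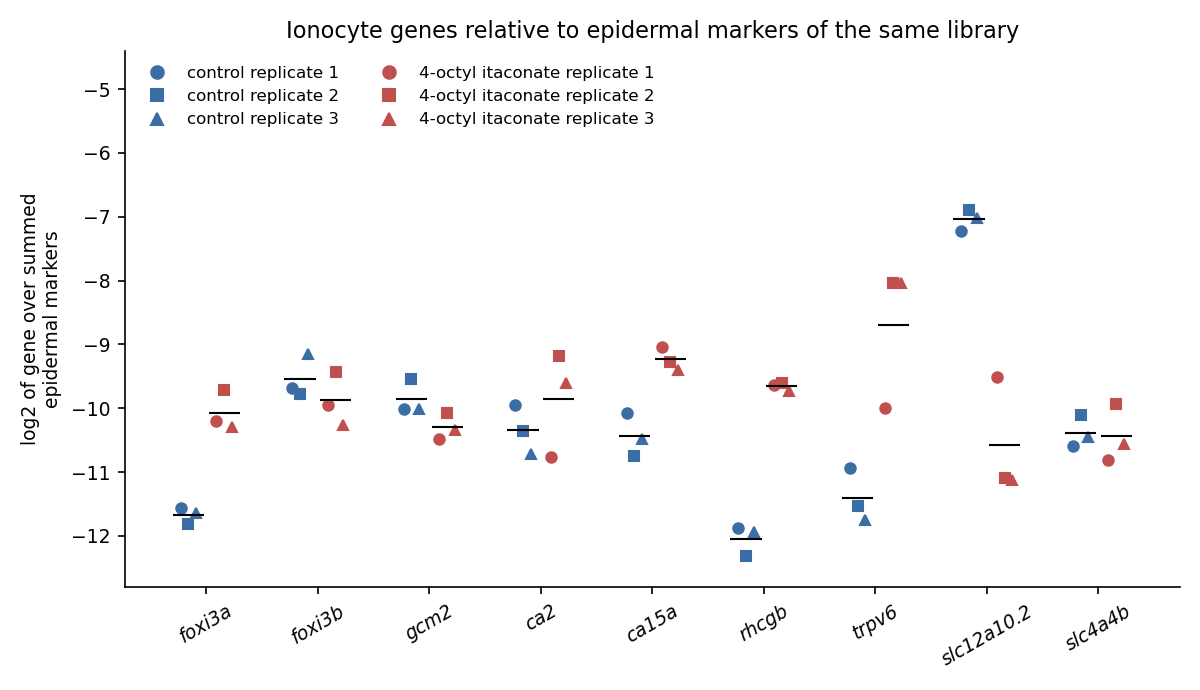
Log2 ratio of each ionocyte gene to the summed 25 epidermal markers of the same library; symbols are libraries and black lines are group means. The groups are apart in rhcgb, trpv6, foxi3a and ca15a, with treated higher, and in gcm2 and slc12a10.2, with treated lower, and they overlap in ca2, slc4a4b and foxi3b.

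Other tissues also use some of the 9 genes, and their markers moved as well, where 35.0% of all tested genes rose and 34.3% fell. Trpv6 and carbonic anhydrase are known from the intestine, where all 15 tested marker genes rose (median log2 fold change 4.03), with summed levels of 0.348% to 0.366% of reads in treated and 0.0224% to 0.0293% in control libraries. Sodium-bicarbonate cotransport is known from the kidney, where 11 of 23 pronephros markers rose and 7 fell (7 and 7 without treated replicate 2, and 7 and 6 without control replicate 1). The tubule gene atp1a1a.4 rose 3.48-fold, and the duct and tubule genes lhx1a and ret, both also neuronal, fell by 3.57 and 2.37 on the log2 scale. The gene gata3 of the same list also fell, with log2 fold changes of -1.50 to -1.06 over the alternatives. The summed pronephros markers took 0.0404% to 0.0572% of reads in treated and 0.0387% to 0.0439% in control libraries. Of 6 markers of mucus-secreting and gland cells of the skin 5 rose, agr2 10.4-fold and muc5.1 6.06-fold, and 1 fell, a call that was lost without treated replicate 3 and without control replicate 1 or 3. Of 13 red cell genes 11 rose, hbae1.1 7.12-fold, and 1 fell, the carbonic anhydrase gene cahz, at -0.44 on the log2 scale. The call of that fall was lost under several alternatives, given below. Of 10 inner ear genes 5 rose, the otolith gene otomp 10.8-fold, and 4 fell, among them otx1 and otx2b. The 5 rises became 3 without treated replicate 2, control replicate 1 or control replicate 2. Over the alternatives the log2 fold change ran from -3.20 to -2.75 for otx1 and from -3.09 to -2.58 for otx2b. The summed inner ear markers took 0.0152% to 0.0191% of reads in treated and 0.0301% to 0.0305% in control libraries. No gene of these lists was at 0 in all libraries of a group. The part of these tissues in the values of the 9 genes, and of the other ionocyte genes that rose, was not tested.

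Regulators of ionocyte fate outside the Foxi3 pair moved in both directions, as did all tested genes, of which 35.0% rose and 34.3% fell. Of 19 regulators tested, 7 rose, 10 fell and 2 did not pass (median log2 fold change -0.64). With upper-quartile scaling 8 rose and 7 fell (median -0.32), and the counts were the same with quantile normalization (median -0.27). The homeobox gene dlx3b, active at the border of the early ectoderm and in epidermis, rose 2.81-fold, and tp63, the epidermal stem cell factor gene, rose 1.65-fold. The gene esrra, for a nuclear receptor needed in zebrafish for ionocyte formation, had a log2 fold change of 1.01. The Notch ligand genes dlc and dla, by which early ionocyte precursors hold back their neighbours, fell by 1.95 and 2.09 on the log2 scale, and tfap2a fell by 2.56 (limma adjusted p of 8.86e-06 to 8.45e-05 for these 3 genes). Notch ligands and tfap2a also act in the nervous system and neural crest, and neuron markers had a median log2 fold change of -3.01, with syt1a and snap25a down by 4.04 and 3.03 (log2); the share of these cells in the values was not tested.

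Of 14 tested hormone and receptor genes that act on ionocytes, 5 rose, 6 fell and 3 did not pass, with a median log2 fold change of 0.30 (-0.09 with quantile normalization), where 35.0% of all tested genes rose and 34.3% fell. The pituitary genes prl, for prolactin, which promotes salt uptake in freshwater fish, and gh1, for growth hormone, rose 18.6-fold and 85.5-fold. Transcripts of prl went from 2.82 to 4.01 in controls to 51.7 to 83.0 in treated libraries (log2 fold change 3.84, limma adjusted p = 5.15e-05). The control values of prl were near the floor of 3 reads, worth 3.01 to 4.23 normalized counts there. The size of its fold is therefore uncertain, and over the alternatives its log2 fold change ran from 2.99 to 4.21. That of gh1 ran from 5.29 to 6.39, so the size of the gh1 fold is uncertain as well. The vitamin D receptor gene vdrb and the gene cyp24a1, for the enzyme that breaks down active vitamin D, rose 6.76-fold and 7.41-fold (limma adjusted p = 3.75e-05 and 7.61e-06). The stanniocalcin gene stc1l, of the hormone family that restrains calcium uptake in fish, stood at 435, 149 and 145 in the treated and 100, 127 and 64.8 in the control replicates. Its log2 fold change of 1.16 passed (limma adjusted p = 0.0404), and was 0.64 without treated replicate 1 (adjusted p = 0.0682), 1.21 without control replicate 1 (0.0809) and 0.90 without control replicate 3 (0.137). The parathyroid hormone family gene pth2, made in the brain, fell by 3.00 on the log2 scale. The choice of tp63, esrra, stc1l and pth2 followed a look at their values.

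The families of the transporter genes are set beside all tested genes, of which 35.0% rose and 34.3% fell. Rises and falls within a family are therefore not particular to it. Of 5 other Rh family genes 4 rose, led by the red cell gene rhag, 8.02-fold, while rhbg and rhcga had log2 fold changes of 0.92 and 0.93. The call of rhd, at 1.69, was lost without treated replicate 1 or 2 or control replicate 2. The gene rhcgl1, at -1.02, did not pass (limma adjusted p = 0.118), but did without treated replicate 1 (-1.60, adjusted p = 0.00772). It also passed with quantile normalization (-1.42, limma adjusted p = 0.0384) and with arrayWeights (-1.47, 0.00855). With quantile normalization 3 of these Rh family genes rose and 1 fell. Of 14 other carbonic anhydrase genes 7 rose, such as ca4c 7.26-fold, ca5a 4.13-fold and ca6 2.06-fold, and 7 fell, such as ca10a and ca16b by 2.16 and 2.46 on the log2 scale. The largest of these falls was that of ca14, from 35.2 to 126 normalized counts in controls to 1.12 to 14.6 in treated larvae (log2 fold change -3.51, limma adjusted p = 0.00304), and its size rested on single libraries, at -4.13 without treated replicate 1 and -2.69 without treated replicate 2. The gene ca15c, the neighbour of ca15a in the RefSeq annotation of GRCz12tu, had a log2 fold change of 1.79 (adjusted p = 0.0266), a call lost without treated replicate 2 or 3 or control replicate 3. The call of the red cell gene cahz, at -0.44, was lost without any 1 of 5 libraries, and that of ca9, at 1.72, without control replicate 1. That of cahz was also lost with TMM scaling, upper-quartile scaling (-0.12), quantile normalization (-0.12), no intensity trend, edgeR and DESeq2. Of 11 other bicarbonate transporter genes of the slc4 family 6 rose, among them slc4a7 6.65-fold and slc4a2b 5.66-fold, and 4 fell. The call of slc4a11, at 1.08, was lost without treated replicate 2 or 3 or control replicate 1. The paralog of slc4a4b, slc4a4a, fell from 3769 ± 174 to 940.0 ± 261 normalized counts (SD, n = 3 per group; limma adjusted p = 2.27e-05), while slc4a4b rose. The neuronal gene slc4a10a fell by 4.08 on the log2 scale. Of 11 other slc12 genes 2 rose, slc12a7a 2.42-fold and slc12a10.1, and 5 fell, including slc12a3, the kidney sodium-chloride cotransporter gene, by 1.86, and slc12a2 by 0.76. Without control replicate 1, 3 of the slc12 genes fell, and the calls of slc12a4, at -0.53, and slc12a7b, at -0.65, were each lost without treated replicate 2 as well, that of slc12a4 also without treated replicate 3 or control replicate 3. The gene slc12a5a, at -0.56, passed only without treated replicate 2 (-1.17, adjusted p = 0.0425), and stood at -0.07 without treated replicate 1 (0.898). Of 4 other trpv and foxi genes, trpv4 alone passed, at 1.38 (limma adjusted p = 0.0405), a call lost without treated replicate 1 or 3 or control replicate 1 or 3, while trpv1, foxi1 and foxi2 stood at 0.21, -0.19 and -0.57.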

How the data were processed

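Messenger RNA captured on beads from whole larvae was sequenced in 6 libraries, per the labels' protocols. The authors deposited a signal for each gene, its count divided by 1 factor per library. The submitters' processing notes name these tools, without their roles: DESeq2, Salmon 1.9.0, STAR 2.7.10a, fastp 0.23.2 and bcl2fastq 2.20.0.422, with build GRCz11. Dividing by each library's smallest step gave whole reads in 100% of values (tolerance 0.01), 14763897 to 23507208 reads a library. For control replicate 1 the step was 1.003, too near 1 for an independent check of the unit, so count tests served as alternatives only. A read was worth 0.955 to 1.41 normalized counts, and the floor of 3 reads covers counting error only.

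The 20352 genes whose mean reached 10 normalized counts (4118 did not) were tested as log2(value + 1), which understates changes of low genes, with limma 3.58.1 in R 4.3.3 (intensity trend, two-sided, threshold 0.05). Folds are ratios of group means. The 9 members and all lists were chosen with earlier results of these data known. Named were the members, all tested genes of the ionocyte type and family lists, and up to 4 genes with the smallest p in each other list; the alternatives were run on all of these, also those not described. Alternatives covered the pseudocount, filter, scaling, limma options, edgeR 4.0.16 and DESeq2 1.42.0 on recovered reads, a replicate block and each library left out; leaving a library out of the ratios between paired genes was added after seeing the data. The tests were tried on simulated counts. Promoter and protein sequences were not used here, so a planned motif search was not run. Figures used Python 3.11.15 and matplotlib 3.10.9.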

Additional observations from a re-analysis of the deposited data

How the results depend on the processing

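The 8 rises kept their direction and passed under all 19 alternatives run, with log2 fold changes of 4.16 to 4.97 for trpv6, 3.96 to 4.52 for rhcgb and 1.28 to 1.74 for gcm2. The fall of slc12a10.2 kept its direction but did not pass after upper-quartile scaling (-1.34), after quantile normalization (-1.40), with no intensity trend (-1.66), by edgeR (-1.18) or by DESeq2 (-1.22), so that 0 members were called lower there; with 1 library left out it ranged from -2.42 to -1.11, and 0 to 1 members were called lower. The cause was not tested. Relative to the summed pronephros markers instead of the epidermal ones, the differences were 4.25 for trpv6, 3.13 for foxi3a, 1.19 for foxi3b, 2.02 for ca2, 2.73 for ca15a, 3.92 for rhcgb, 1.48 for slc4a4b, -2.0009 for slc12a10.2 and 1.09 for gcm2, so that gcm2, foxi3b and slc4a4b changed sign; slc4a4b also did relative to the keratins alone (0.013).

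Of the 114 other genes named by the rule or picked, 22 changed a call or direction under at least 1 alternative. The calls of rhd, ca15c and slc4a11 were also lost with quantile normalization. Those of slc12a4 and slc12a7b were lost with upper-quartile scaling, quantile normalization and no intensity trend, that of slc12a4 also with TMM scaling and edgeR. Those of trpv4 and stc1l were lost with library total scaling, quantile normalization and no intensity trend. The 8 whose sign reversed had not passed. They were slc12a10.3 (0.013 with TMM scaling, 0.29 with upper-quartile scaling, 0.044 by edgeR, 0.012 by DESeq2, and -0.23 to 0.11 with 1 library left out), slc12a8 (-0.33 with quantile normalization, -0.49 with arrayWeights, -0.62 to 0.51 with 1 library left out), slc12a9 (-0.029 with library total scaling, -0.0074 with quantile normalization, -0.032 to 0.27 with 1 library left out), slc4a10b (-0.22 with quantile normalization, -0.30 to 0.58 with 1 library left out), trpv1 (-0.21 with quantile normalization, -0.13 to 0.65 with 1 library left out), foxi1 (0.098 with upper-quartile scaling, -0.52 to 0.26 with 1 library left out), atp6v0ca (0.041 with upper-quartile scaling) and igfbp5a (-0.014 to 0.35 with 1 library left out). Upper-quartile scaling moved the median of all genes by 0.32 (log2), and 59.9% of its calls were higher, against 50.5%. Same-numbered libraries of both groups did not deviate together (correlations of -0.057 to 0.050), so the numbers were not taken as pairs. With the replicate block 13679 genes were called, against 14098, the 8 rises passed, slc12a10.2 had an adjusted p of 0.0216, and the call of trpv4 was lost.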

Other observations

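For each of the 9 genes, the gene with the most similar log2 values over the 6 libraries (Pearson, among 15479 others whose mean reached 50 normalized counts) was found. These were urod, a heme synthesis gene, for foxi3a (r = 0.9996), tfa, the transferrin gene, for rhcgb (0.9998), tnfsf10 for ca15a (0.9997), mrpl16 for trpv6 (0.9998), palld for ca2 (0.9991), slc52a2 for gcm2 (0.999), fam110c for foxi3b (0.9948), CABZ01068499.1 for slc4a4b (0.9995) and ube2al for slc12a10.2 (0.9965). The likeness rests on 2 groups of 3 libraries that differ in most genes. For foxi3a 2759 genes had an r over 0.95, while for slc12a10.2 only 228 did, and ube2al stood at 1622, 852 and 952 normalized counts in treated replicates 1, 2 and 3 against 1608, 1740 and 1742 in the control replicates.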
